A study of Mus musculus with 4 samples.

Results

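The genes described here encode 8 proteins that neutrophils secrete, and they were taken by symbol from a table of 47729 genes: Retnlg, Wfdc17, Wfdc21, Slpi, Hp, Lrg1, Pglyrp1 and Lyz2. They hold 13 of the 115220 transcripts in that table. All 8 genes and 12 of their transcripts reached a mean of at least 1 FPKM (fragments scaled by transcript length and library total) in either genotype, the minimum for testing. RNA came from neutrophils of SKG mice, a BALB/c strain whose altered T cell kinase Zap70 predisposes it to arthritis. One group was wild type for Mif and the other was Mif -/- (Mif KO), with 2 libraries each. All mice had received curdlan, a fungal beta-glucan, 8 weeks earlier, and the cells had been sorted from bone marrow and spleen in proportions that the labels do not give. Both groups share the SKG background, the curdlan injection and the sort. Mif encodes macrophage migration inhibitory factor, and the labels restrict its loss to no cell type, so a difference need not arise within the neutrophil. Age, sex and whether the 2 libraries of a genotype came from separate animals are not given in the labels, so the p-values reflect the spread of these libraries alone, which could be technical. Throughout, values of a pair are given as replicate 1, then replicate 2.

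Neutrophils store proteins that attack bacterial cell walls in their granules and release them when activated. They also secrete small inhibitors with a whey acidic protein (WAP) fold, which restrain serine proteases and in several cases have antimicrobial activity of their own. Acute-phase proteins are known mainly as products of the liver whose plasma levels change in inflammation, but granulocytes make some of them too, and load haptoglobin into granules as they mature. Many of these genes are transcribed in the marrow during granulopoiesis, under C/EBP transcription factors.

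One pair of sequences bears on how reads are assigned, because Lyz2 has a neighbour of nearly the same sequence. Lyz1 lies 5.48 kb from Lyz2 on chromosome 10, and the coding sequences of both have 447 bases, of which 425 (95.1%) are identical in GENCODE M21. The longest run without a difference has 118 bases, longer than the 100-base reads, and 19 of the 348 windows of 100 coding bases hold no difference. The window of 100 coding bases with the most differences, 13, runs from base 33 to base 132 counted from the start codon, and the capitals mark the bases that differ.
Lyz2: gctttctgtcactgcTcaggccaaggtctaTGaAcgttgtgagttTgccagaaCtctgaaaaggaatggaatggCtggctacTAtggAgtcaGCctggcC
Lyz1: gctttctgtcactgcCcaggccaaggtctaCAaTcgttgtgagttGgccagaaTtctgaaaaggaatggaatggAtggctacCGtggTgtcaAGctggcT
Reads that cover such a stretch can be told apart, and reads within the longest shared run cannot. Whole transcripts shared a longest run of 49 bases between Retnlg and Retnla and of 30 bases between Wfdc17 and Wfdc18. Hp, Lrg1 and Pglyrp1 were compared with no other gene in this way, nor was Retnlg with Retnlb.

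The promoters of Lrg1 and Retnlg are shown because these genes had the largest differences between the genotypes. RefSeq sequence on GRCm38.p6 was matched for 6 of the 8 genes. A set of 5 motifs was searched on both strands of the 250 bases before the RefSeq start site: TTNNGCAA (C/EBP), TTCNNNGAA (STAT), GGGNNTTCC (NF-kB), GAGGAA (PU.1) and TATAAA, the core promoter box. They were held by 9.56%, 7.02%, 4.98%, 23.3% and 12.4% of 32851 promoter windows of that length. Capitals mark matches, and bases that GENCODE M21 places in an exon of the gene are left off.
Retnlg promoter, chr16:48872358-48872607, plus strand: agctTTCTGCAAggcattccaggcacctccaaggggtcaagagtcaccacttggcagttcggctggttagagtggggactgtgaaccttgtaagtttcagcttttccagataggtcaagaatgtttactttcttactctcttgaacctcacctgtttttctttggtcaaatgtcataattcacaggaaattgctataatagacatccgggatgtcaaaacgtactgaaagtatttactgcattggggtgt
Lrg1 promoter, chr17:56122002-56122196, minus strand: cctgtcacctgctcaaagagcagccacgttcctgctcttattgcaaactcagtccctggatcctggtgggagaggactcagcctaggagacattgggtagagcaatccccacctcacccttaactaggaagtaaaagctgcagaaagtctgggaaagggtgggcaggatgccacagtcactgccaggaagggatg
The Retnlg window held 1 match, to the C/EBP letters, 246 to 239 bases before the start site, and the Lrg1 window held none of the 5. Slpi also held 1 match to the C/EBP letters, Pglyrp1 held 2 to PU.1 and 1 to NF-kB, and Lyz2 held none. Wfdc17 held 1 to the PU.1 letters, 39 to 34 bases before the RefSeq start site, inside the gene as GENCODE M21 places it. No matches overlapped. A match describes letters only.

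The libraries differed in depth along with genotype. Taking wild-type replicate 2 as 1, the step size of low FPKM values gave a relative depth of 1.23 in wild-type replicate 1 and 5.28 and 4.83 in Mif KO replicates 1 and 2. The sample descriptions place wild-type libraries in lane 2 and Mif KO libraries in lane 1, so depth, lane and genotype cannot be told apart. Wild-type replicates also varied more than Mif KO replicates, with SDs of log2 differences between replicates of 0.337 and 0.145 over the genes tested. Mif had 0.882 and 2.88 FPKM in the wild-type pair and was listed at 0 in both Mif KO libraries.

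All 8 genes were strongly expressed in every library, and 0 of them passed the test between genotypes. Lyz2 ranked 8th among all genes in each library, and Retnlg ranked 15th in both wild-type and 16th in both Mif KO libraries. The lowest, Wfdc17, ranked between 251 and 374. The 8 genes summed to 15176 and 15532 FPKM in the wild-type and 16881 and 17446 FPKM in the Mif KO libraries, which is 2.82%, 2.94%, 2.98% and 3.14% of all FPKM. The Mif KO sums lay above both wild-type sums, by a ratio of means of 1.12, with no test made of a sum. Lyz2 alone supplied 55.8% of the sum in wild-type replicate 2, its highest share.

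**Figure D1:**
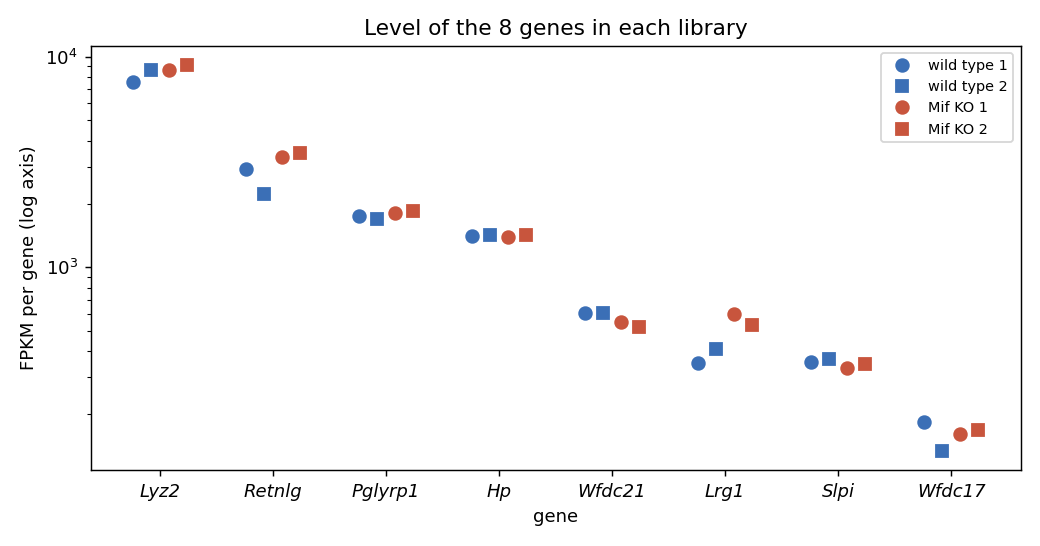
FPKM per gene on a log axis for each of the 8 genes, with 1 point per library, blue for wild type and red for Mif KO (circles replicate 1, squares replicate 2). Lyz2 lies highest and Wfdc17 lowest in every library, and Lrg1 stands above Wfdc21 only in the 2 Mif KO libraries.

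The order of levels, which are per length, was the same in all 4 libraries for Lyz2, Retnlg, Pglyrp1 and Hp (in that order, from the top) and for Wfdc17 (lowest). The places between changed. In wild-type libraries Wfdc21 followed Hp, and Slpi and Lrg1 exchanged places between replicates, so these neighbours did not differ beyond their spread. In both Mif KO libraries Lrg1 followed Hp, then came Wfdc21 and Slpi. Lrg1 and Wfdc21 lay close together in Mif KO replicate 2, at 530 and 517 FPKM.

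Genotypes were compared with limma on log2(FPKM + 1) over 10221 genes, with Benjamini-Hochberg adjustment over all of them. At an adjusted p under 0.05, 35 genes passed (0.342%), 16 higher and 19 lower in Mif KO, and with scaling by the median of ratios or trimmed mean 9 were higher and 7 lower, without 7SL and 7SK RNAs 8 and 6. None of the 8 secreted protein genes passed, and neither did Mif itself (limma adjusted p = 0.161). At an unadjusted p under 0.05 there were 3 of the 8, against 17.9% of all genes tested: Lrg1 and Retnlg on the higher side (8.35% of all genes) and Wfdc21 on the lower side (9.56%). Both Mif KO libraries lay outside the wild-type range for 6 of the 8, against 52.8% of all genes: 4 above it (29.6% of all genes) and 2 below it (23.1%). Differences were positive for 5 of the 8, against 5537 of all 10221 genes tested. The median log2 difference of the 8 was 0.080, where that of all genes tested was 0.018. No test was made of these counts over the 8 genes.

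**Figure D2:**
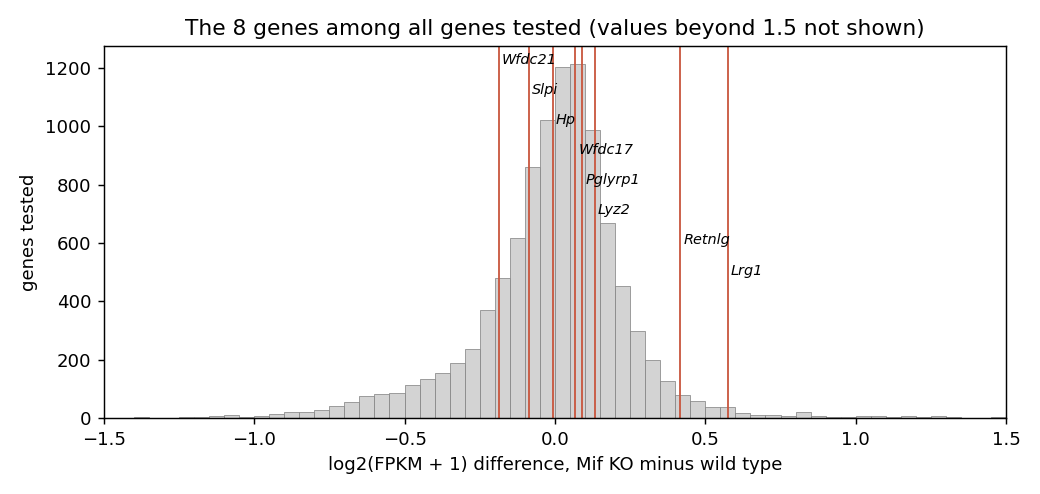
Histogram of the log2(FPKM + 1) difference, Mif KO minus wild type, over the genes tested, with a red line at each of the 8 genes. Wfdc21, Slpi, Hp, Wfdc17, Pglyrp1 and Lyz2 fall between -0.19 and 0.13, in the bulk of the distribution, and Retnlg (0.42) and Lrg1 (0.57) lie in its upper tail.

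Lyz2 encodes lysozyme M, which cleaves the peptidoglycan of bacterial cell walls and is a classic marker of myeloid cells. The gene (ENSMUSG00000069516) is on the minus strand of chromosome 10 of GRCm38, from 117277331 to 117282321, and its single annotated transcript has 4 exons. It is 41.4 Mb from Mif on the same chromosome. Lyz2 had 7592 and 8672 FPKM in the wild-type pair and 8685 and 9122 FPKM in the Mif KO pair. The Mif KO libraries were above both wild-type libraries, but wild-type replicate 2 and Mif KO replicate 1 were almost level. The means were 8132 ± 764 and 8904 ± 309 FPKM (SD, n = 2 per group). The log2 difference was 0.13 ± 0.09 (SE), with a 95% interval from -0.10 to 0.37, and did not pass (limma, Benjamini-Hochberg adjusted p = 0.491).

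The neighbouring Lyz1, the lysozyme of Paneth cells, had 174 and 202 FPKM in the wild-type pair and 186 and 192 FPKM in the Mif KO pair. That is 2.29%, 2.33%, 2.14% and 2.1% of Lyz2 in the same libraries, a share that varied little. Reads of the pair cannot be fully divided, so the Lyz1 level is uncertain. Summing both genes, an alternative chosen after seeing the data, gave a log2 difference of 0.13 for Lyz2 (limma adjusted p = 0.50).

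Pglyrp1 encodes a granule protein that binds bacterial peptidoglycan and is a ligand of the receptor TREM1. It lies on the plus strand of chromosome 7, from 18871331 to 18890459 (ENSMUSG00000030413). The gene had 1744 and 1693 FPKM in the wild-type pair and 1811 and 1851 FPKM in the Mif KO pair. The genotypes did not overlap, and the gap between their nearest libraries was little larger than that between replicates, with means of 1719 ± 36.3 and 1831 ± 28.3 FPKM (SD, n = 2 per group). The log2 difference was 0.091 ± 0.064 (SE; 95% interval from -0.076 to 0.26) and did not pass (limma adjusted p = 0.509). With a correction for GC content and transcript length it was 0.017.

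Slpi encodes secretory leukocyte protease inhibitor, a WAP protein that inhibits neutrophil elastase and cathepsin G. It is on chromosome 2 (minus strand), from 164354070 to 164389095 (ENSMUSG00000017002), and the microRNA gene Mir7678 lies within it on the same strand. Slpi had 355 and 366 FPKM in the wild-type pair and 332 and 346 FPKM in the Mif KO pair. Both Mif KO values were lower, and the gap between the nearest libraries was smaller than that between replicates. The log2 difference was -0.086 ± 0.067 (SE; 95% interval from -0.26 to 0.088) and did not pass (limma adjusted p = 0.544).

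Wfdc21 and Wfdc17 are further WAP genes, 40.7 kb apart on the plus strand of chromosome 11. Wfdc17 encodes a protein also known as AMWAP, described in activated macrophages and microglia. Wfdc21 (ENSMUSG00000051748, from 83746940 to 83752642) had 604 and 607 FPKM in the wild-type pair and 548 and 517 FPKM in the Mif KO pair. The wild-type replicates were nearly equal and both Mif KO libraries were below them, giving means of 606 ± 1.97 and 533 ± 21.6 FPKM (SD, n = 2 per group). The log2 difference was -0.19 ± 0.07 (SE; 95% interval from -0.36 to -0.0093). It did not pass over all genes (limma adjusted p = 0.261), and was -0.065 with the correction for GC content and length.

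Wfdc17 (ENSMUSG00000069792, from 83703991 to 83706268) had 183 and 134 FPKM in the wild-type pair and 161 and 168 FPKM in the Mif KO pair. The Mif KO values lay inside the range of the wild-type values, which differed 1.37-fold. The log2 difference was 0.068 ± 0.16 (SE; 95% interval from -0.35 to 0.48; limma adjusted p = 0.852). Its direction depended on the wild-type library used: 0.29 with wild-type replicate 1 left out (limma adjusted p = 0.0103) and -0.16 with replicate 2 left out (limma adjusted p = 0.144).

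Hp encodes haptoglobin, which binds free haemoglobin and is stored in neutrophil granules. It is on chromosome 8 (minus strand), from 109575128 to 109579172 (ENSMUSG00000031722), with 5 exons in its transcript. Hp had 1413 and 1418 FPKM in the wild-type pair and 1395 and 1422 FPKM in the Mif KO pair. These values were the closest of the 8 genes, the libraries of both genotypes overlapping within 1.02-fold. The log2 difference was -0.0075 ± 0.063 (SE; limma adjusted p = 0.961), and it turned to 0.026 with scaling without 7SL and 7SK RNAs and to 0.0063 without Mif KO replicate 1. The 95% interval of the difference ran from -0.17 to 0.16.

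Lrg1 encodes leucine-rich alpha glycoprotein, an acute-phase protein of neutrophil granules that modulates TGF-beta signalling in endothelium. It is on chromosome 17 (minus strand), from 56119678 to 56122001 (ENSMUSG00000037095), with 2 exons. Lrg1 had 352 and 408 FPKM in the wild-type pair and 601 and 530 FPKM in the Mif KO pair. Both Mif KO libraries were above both wild-type libraries, by more than either pair of replicates differed, with means of 380 ± 39.7 and 566 ± 50.3 FPKM (SD, n = 2 per group) and a ratio of 1.49.

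The log2 difference of Lrg1 was 0.57 ± 0.11 (SE), with a 95% interval from 0.29 to 0.86 and an unadjusted p of 0.00371, and it did not pass over all genes (limma adjusted p = 0.127). Among the genes tested, 193 (1.89%) had a larger positive difference. Relative to Hp, Lrg1 stood at 24.9% and 28.8% in wild-type and 43.1% and 37.3% in Mif KO libraries, a ratio within each library that its scaling does not change. Hp was nearly level between libraries, so this ratio largely restates the FPKM of Lrg1. The ratio is not corrected for GC content or length. Lrg1 had the highest GC content of the 8 transcripts (63.0%), and with the correction for GC content and length the log2 difference was 0.37 (limma adjusted p = 0.153). The same correction enlarged the differences of Retnlg (to 0.52, above that of Lrg1), Wfdc17 (0.22), Slpi (-0.13) and Hp (-0.099). It left Lyz2 at 0.13.

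Retnlg encodes resistin-like gamma, a cysteine-rich secreted protein abundant in marrow granulocytes. The gene (ENSMUSG00000022651) lies on the plus strand of chromosome 16, from 48872621 to 48874496, 28.2 kb from Retnla and 53.7 kb from Retnlb. Retnlg had 2932 and 2234 FPKM in the wild-type pair and 3347 and 3489 FPKM in the Mif KO pair. Both Mif KO libraries were higher, but the wild-type replicates differed 1.31-fold, more than wild-type replicate 1 differed from either Mif KO library. The means were 2583 ± 494 and 3418 ± 100.2 FPKM (SD, n = 2 per group).

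The log2 difference of Retnlg was 0.42 ± 0.14 (SE; 95% interval from 0.048 to 0.79; unadjusted p = 0.0337) and did not pass over all genes (limma adjusted p = 0.239). Leaving out wild-type replicate 2 gave 0.22, and leaving out replicate 1 of that group gave 0.61. Relative to Lyz2, Retnlg stood at 38.6% in wild-type replicate 1, 25.8% in wild-type replicate 2, and 38.5% and 38.3% in Mif KO replicates 1 and 2. On that ratio wild-type replicate 2 was the library that stood apart, and wild-type replicate 1 was level with the Mif KO libraries. The ratio depends on Lyz2, which was itself lowest in wild-type replicate 1 (7592 FPKM, against 8672, 8685 and 9122 in the others). In FPKM, Retnlg in wild-type replicate 1 was below both Mif KO libraries. Its paralogs were scarce: Retn stood between 0.984 and 1.58 FPKM, Retnlb between 0.203 and 0.363 FPKM, and Retnla was listed at 0 in 3 libraries.

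**Figure D3:**
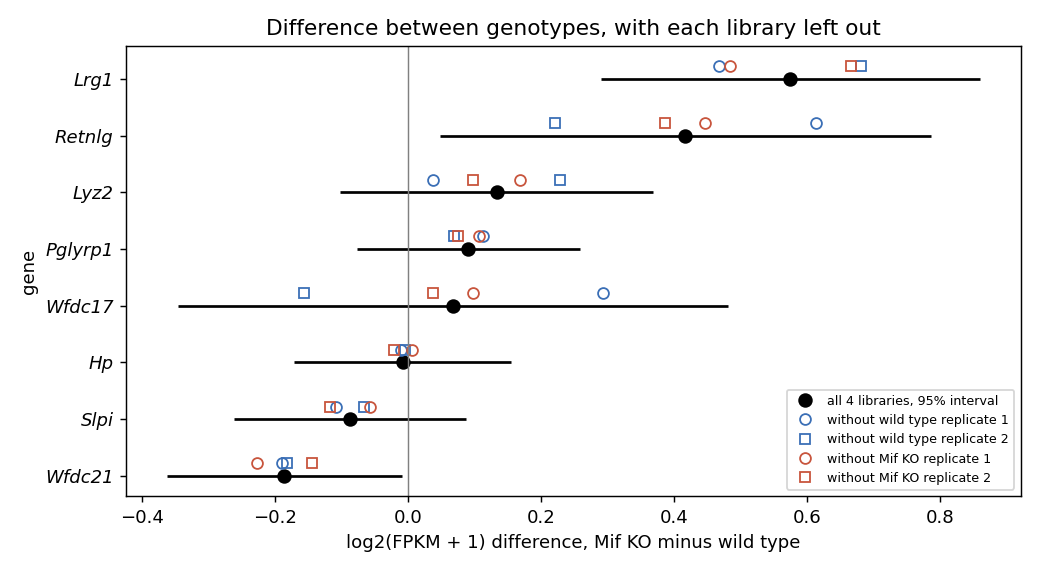
Log2(FPKM + 1) difference, Mif KO minus wild type, for each of the 8 genes: filled points with 95% intervals use all 4 libraries, and open symbols leave out 1 library each. Lrg1 stays between 0.47 and 0.68 and Retnlg between 0.22 and 0.61, while Wfdc17 crosses 0.

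Leaving out 1 wild-type library changed the calls. Without wild-type replicate 1, 3 of the 8 genes passed, Retnlg, Lrg1 and Wfdc17, when 26.0% of all genes did. Without wild-type replicate 2, 3 passed, Retnlg, Lrg1 and Lyz2, when 28.8% of all genes did. Lrg1 had an adjusted p of 0.000377 and 1.9e-06 in these limma fits, Retnlg 4.4e-06 and 0.0213, and Lyz2 0.734 and 0.0145. In such a fit the lone wild-type library is assumed to vary like the Mif KO pair, although the wild-type pair varied more. Leaving out either Mif KO library left 0 of the 8 and 0 of all genes tested (0%), with 481 and 618 genes at an unadjusted p under 0.05.

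Of the genes, 6 have 1 annotated transcript. Of 12 transcripts tested, 0 passed, against 47 of all 19696 transcripts (0.239%) in limma with Benjamini-Hochberg adjustment. That count over all transcripts was 1 with a replicate block, 1 without wild-type replicate 2, and 0 without any 1 of the other libraries. At an unadjusted p under 0.05 there were 3, those of Lrg1 and Wfdc21 and a minor form of Slpi, against 19.2% of all transcripts. The groups did not overlap for 8 of the 12, against 56.2%.

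The main Slpi transcript (ENSMUST00000109367) held 97.5% and 97.6% of the gene's FPKM in wild-type and 98.2% and 97.9% in Mif KO libraries. The minor coding form ENSMUST00000165980 had 6.28 and 6.77 FPKM in the wild-type pair and 2.86 and 3.85 FPKM in the Mif KO pair. Both Mif KO values were lower, and the log2 difference, -0.80 ± 0.16 (SE), did not pass (limma adjusted p = 0.179). The other minor form, ENSMUST00000167427, went the other way, at 2.50 and 2.05 against 3.15 and 3.25 FPKM (log2 difference 0.36 ± 0.13, limma adjusted p = 0.264). Minor forms are estimates that divide reads of shared exons.

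The main Pglyrp1 transcript (ENSMUST00000032573) held between 93.8% and 95.2% of the gene. A form annotated as a retained intron (ENSMUST00000206481) had 23.6 and 42.3 FPKM in the wild-type pair and 24.6 and 25.7 FPKM in the Mif KO pair, so only wild-type replicate 2 was high. A noncoding processed transcript (ENSMUST00000206569) stayed between 62.7 and 66.7 FPKM in the 4 libraries. The remaining form was at most 0.0056 FPKM and was not tested.

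**Figure D4:**
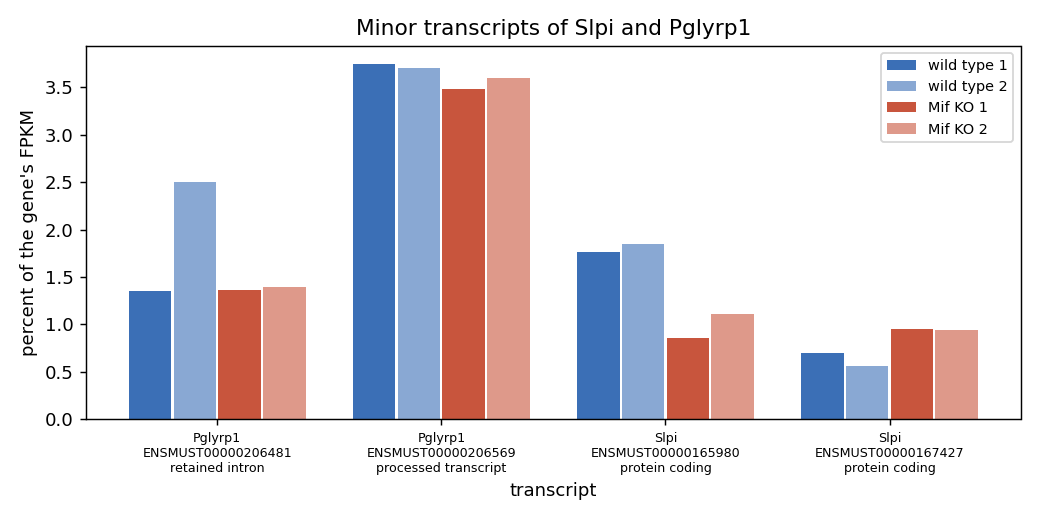
Share of the gene's FPKM, in percent, held by the minor transcripts of Slpi and Pglyrp1, with 1 bar per library (blue wild type, red Mif KO). The Slpi form ENSMUST00000165980 holds 1.77% and 1.85% in wild-type and 0.861% and 1.11% in Mif KO libraries, and the retained intron form of Pglyrp1 is high only in wild-type replicate 2.

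In the authors' deposited table none of these transcripts had a q-value under 0.05. The authors' deposited table gives Lrg1 a fold of 1.49 with a q-value of 0.457, and Retnlg a fold of 1.34 with a q-value of 0.638. For the Slpi form ENSMUST00000165980 the authors' deposited table gives a fold of 0.576 with a q-value of 0.433.

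Related genes were compared by lists of other secreted antimicrobial proteins, protease inhibitors, acute-phase proteins, resistins, binding partners and upstream regulators. None of the genes on these 6 lists passed over all genes (limma, Benjamini-Hochberg). Among 13 other antimicrobial proteins 8 were tested, 6 with a positive difference and a median of 0.085. Ngp, neutrophilic granule protein, had 17763 and 16697 FPKM in the wild-type pair and 19869 and 19663 FPKM in the Mif KO pair (log2 difference 0.20, limma adjusted p = 0.246). The chitinase-like Chil3 stood at 845 and 928 against 972 and 1048 FPKM. Lactoferrin (Ltf) stood at 7549 and 6858 against 7646 and 7781 FPKM, and Pglyrp4 at about 1 FPKM. Both Mif KO values were above both wild-type values for these 4, the genes of lowest p in the list, and the genotypes overlapped for the other 4 tested (Ear2, Lcn2, Camp and Lyz1). Among all genes tested 29.6% lay above in that way.

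Most acute-phase genes other than Hp and Lrg1 were below the minimum for testing. Of 20, 4 were tested and 9 were listed at 0 in every library. The differences did not share a direction, with 1 positive and 3 negative and a median of -0.20. Lbp, which carries bacterial lipopolysaccharide to its receptor, stood at 73.5 and 65.3 against 59.1 and 59.3 FPKM. The orosomucoid Orm1 stood at 61.8 and 78.2 against 55.4 and 57.6 FPKM, Orm2 at 1.57 and 2.06 against 1.52 and 1.42 FPKM. Complement C3 went the other way, at 383 and 341 against 413 and 426 FPKM.

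Of 24 other WAP genes and protease inhibitors 3 were tested and 16 were listed at 0 in every library. Serpinb1a, an inhibitor of neutrophil serine proteases, had 291 and 300 FPKM in the wild-type pair and 324 and 332 FPKM in the Mif KO pair (log2 difference 0.15, limma adjusted p = 0.327). Wfdc18, 2.75 kb from Wfdc17, stood between 0.696 and 1.43 FPKM, and the metalloproteinase inhibitor Timp2 between 30.5 and 35.0 FPKM. None of the 3 had a p under 0.05 before adjustment.

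Among 15 receptors and partners 11 were tested, 5 with a positive difference and a median of -0.00029. Grn, progranulin, which SLPI protects from cleavage, had 87.0 and 82.7 FPKM in the wild-type pair and 105 and 108 FPKM in the Mif KO pair (log2 difference 0.32, limma adjusted p = 0.146). Trem1, the receptor for the Pglyrp1 protein, stood lower, at 121 and 107 against 88.9 and 100.3 FPKM (log2 difference -0.27, limma adjusted p = 0.274). Tgfb1 stood at 24 and 29.6 against 32.2 and 32.5 FPKM, and the TGF-beta superfamily receptor Acvrl1 at 1.71 and 0.630 against 1.50 and 1.46 FPKM. The 4 partners below the minimum, named after their values were seen, were Elane, Ctsg, Eng and Cd163. Elane and Ctsg, the proteases that SLPI inhibits, stood between 0.0815 and 0.839 FPKM and between 0 and 0.138 FPKM.

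Regulators of acute-phase and granule genes had 13 of 16 members tested, 9 with a positive difference and a median of 0.10. Cebpd, a C/EBP factor of the acute-phase response, had 41.5 and 62.3 FPKM in the wild-type pair and 95.6 and 75.4 FPKM in the Mif KO pair. Both Mif KO libraries were higher, and the log2 difference, 0.73 ± 0.22 (SE), did not pass (limma adjusted p = 0.210). Cebpe, which drives late granule genes, stood at 132 and 176 against 212 and 192 FPKM. Cebpb, a further C/EBP factor, stood at 29.9 and 39.3 against 38.4 and 35.6 FPKM, so its genotypes overlapped. Cebpa stood at 2.87 and 3.49 against 4.32 and 4.41 FPKM, and the NF-kB regulator Nfkbiz stood lower, at 50.5 and 66.2 against 38.8 and 43.9 FPKM.

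**Figure D5:**
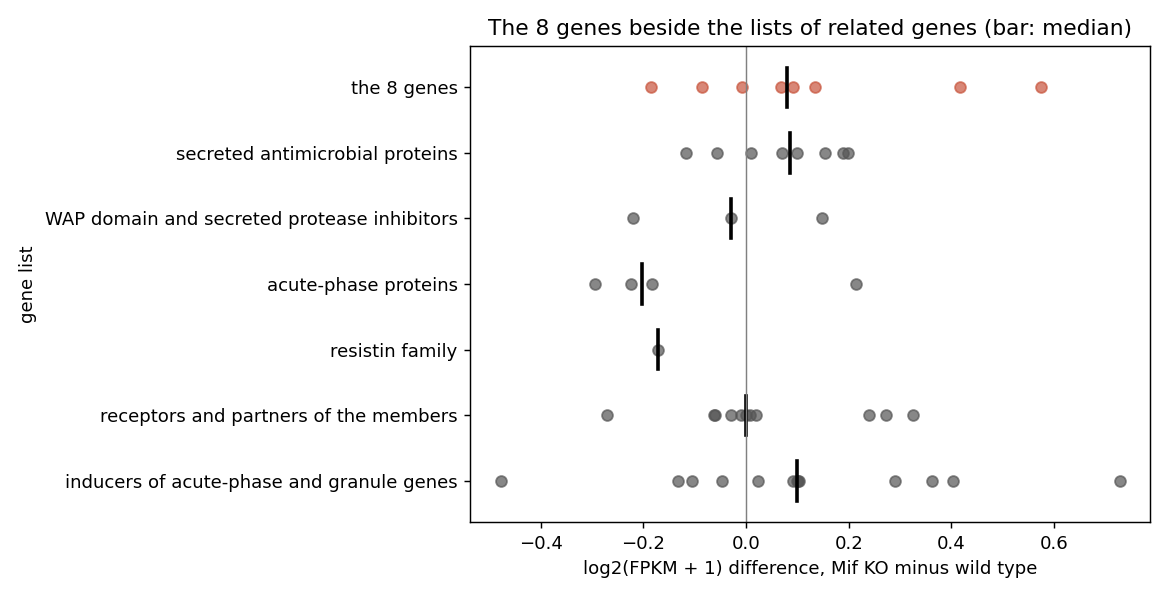
Log2(FPKM + 1) difference, Mif KO minus wild type, of each gene tested in the 6 lists of related genes and of the 8 genes themselves (red), with a bar at each median. The 8 genes span -0.19 to 0.57, and Cebpd, at 0.73 among the regulators, is the rightmost point.

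Likeness of pattern was measured as the root mean square distance of centred log2(FPKM + 1) values over the 4 libraries, among 4008 protein-coding genes whose mean reached 10 FPKM. The nearest genes to Retnlg were Hopx, with 24.5 and 18.4 FPKM in the wild-type pair and 28.0 and 27.6 FPKM in the Mif KO pair (distance 0.035), and Lipg (0.049). Nearest to Lrg1 were Ccdc124, at 7.97 and 9.33 against 14.3 and 12.9 FPKM (0.021), and H2afx (0.038). No member was among the 2 nearest genes of another. The distances of the 2 nearest genes of each member ran from 0.0033 to 0.049 over 4 libraries.

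Markers of other cell types differed between libraries as well. Slpi, Wfdc17 and Lyz2 are also made by monocytes and macrophages, whose 12 markers summed to 48.1 and 64.6 FPKM in the wild-type pair and 55.0 and 61.7 FPKM in the Mif KO pair. Of these markers 7 were tested, 6 with a positive difference, and wild-type replicate 1 was lowest for C1qa (1.69, 3.10, 3.23 and 3.43 FPKM). Ms4a7 was listed at 0 in wild-type replicate 2 and Mif KO replicate 1. B and plasma cell markers summed to 196 and 159 FPKM in the wild-type pair and 35.7 and 41.3 FPKM in the Mif KO pair. Of these 8 markers 3 were tested, Igkc, Jchain and Ighm. All 3 passed, lower in Mif KO (limma adjusted p = 0.0226, 0.0261 and 0.0423), when 0.342% of all genes passed. Erythroid markers summed to 5.68 FPKM in wild-type replicate 1 and to 22.2, 19.3 and 19.2 FPKM in the other libraries.

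The defining neutrophil gene S100a8 had 41370 and 38838 FPKM in the wild-type pair and 35980 and 36080 FPKM in the Mif KO pair. S100a9 stood at 38906 and 38638 against 34886 and 35544 FPKM. Both genes were lower in both Mif KO libraries and did not pass (limma adjusted p = 0.337 and 0.344). The summed neutrophil list was 86373 and 84119 FPKM in the wild-type pair and 77596 and 78514 FPKM in the Mif KO pair. Of that list only Ly6g passed, higher in Mif KO (limma adjusted p = 0.0364). Mmp9 was also higher in both Mif KO libraries, at 1066 and 997 against 1258 and 1263 FPKM, and did not pass (limma adjusted p = 0.160). Of the 7 neutrophil markers tested, 2 had a positive and 5 a negative difference. The T cell genes Cd3e and Trac were at or near 0, while Cd3d stood between 62.0 and 72.2 FPKM. The part of these cells in the differences of the 8 genes was not tested. In bulk RNA, fewer cells of a type and less RNA per cell cannot be told apart.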

How the data were processed

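Stranded total RNA libraries depleted of ribosomal RNA were sequenced from 2 wild-type and 2 Mif KO samples, with RNA integrity numbers averaging 9.99, per the labels' protocols. Per the file headers, the authors deposited 1 table of FPKM per transcript and library, with their fold (a ratio), p-value and q-value. The submitters' processing notes name GRCm38 and the tools StringTie 2.1.4, HISAT2 2.1.0, SAMtools 1.9 and R 3.6.1. The strand setting and annotation release were not given in the sources used here. FPKM is a share of a library, so 1 abundant RNA lowers the others.

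FPKM was summed per gene identifier and tested as log2(FPKM + 1), which understates low genes, with limma 3.58.1 in R 4.3.3 (trended moderation, 2 against 2 libraries, no covariates, Benjamini-Hochberg at 0.05), over genes whose mean reached 1 FPKM in either genotype. The script was tested on simulated data, where it called 38% of genes given a 1.5-fold change and 70.8% of those given a 2-fold change. Of the simulated calls, 3.1% were false. The simulation gave both genotypes the same spread per gene, whereas wild-type replicates here varied more than Mif KO replicates. It changed only genes with a mean log2(FPKM + 1) above 2, so these shares need not hold for the real libraries. A gene that did not pass may still differ 1.5-fold or 2-fold. Positions came from GENCODE M21 on GRCm38, which matched 47310 of 47729 genes. The files give no counts. Steps between low values of FPKM times length in single-exon genes gave relative depth only, so no counting interval is given.

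The 8 genes and the lists of related and marker genes were chosen with earlier results of these data known. Genes named were the 8 genes, the up to 4 lowest p per related list, defining markers, paralogs, and the 2 nearest patterns of Retnlg and of Lrg1. Some further genes of the lists, such as Cebpb, Ear2 and Lcn2, were named outside this rule. Alternatives were pseudocounts of 0.1 and 10, other filters, 3 scalings, moderation without a trend, a replicate block, a GC and length correction, leaving out each library, and transcripts.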

Additional observations from a re-analysis of the deposited data

How the results depend on the processing

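None of the 8 genes passed under any alternative that kept all 4 libraries, nor did any of their transcripts under the alternatives run on transcripts. The count over all genes was 21 with a pseudocount of 10, 0 with no filter on low values, 11 with a minimum of 10 FPKM, 16 with scaling by the median of ratios and 16 by the trimmed mean, 14 with scaling without 7SL and 7SK RNAs, and 13 with the GC content and length correction, and from 0 to 2938 leaving out 1 library. With no filter, 3032 genes had an unadjusted p under 0.05. The median log2 difference of the 8 genes was 0.032 with either scaling by ratios, 0.11 without 7SL and 7SK RNAs, and from 0.032 to 0.10 leaving out 1 library. The ratio of summed FPKM was 1.08 with the median of ratios and 1.08 with the trimmed mean, and from 1.10 to 1.14 leaving out 1 library. From 0 to 3 of the 8 passed leaving out 1 library. Hp turned to 0.026 without 7SL and 7SK RNAs and ran from -0.021 to 0.0063 leaving out 1 library, positive without Mif KO replicate 1, and Wfdc17 ran from -0.16 to 0.29, negative without wild-type replicate 2. The causes were not tested. Of 121 single values of the 8 genes under alternatives, 112 kept direction and side of the threshold and 3 reversed. The rest newly passed, all in fits left with 1 wild-type library. The filters, the moderation without a trend and the replicate block leave the difference itself unchanged, so those values could not reverse.

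The labels do not say that a replicate number marks a shared animal or day, and deviations of same-numbered libraries correlated by 0.0065 over genes, so the numbers were not taken as pairs. With a replicate block 34 genes and 1 transcript passed over all, against 35 and 47 without it, with 0 of the 8 genes and 0 of their transcripts. Over all transcripts 32 passed with a pseudocount of 0.1, 37 with one of 10, 42 without a trend, 17 with a minimum of 10 FPKM, 1 with no filter, and from 0 to 1 leaving out 1 library. FPKM files give no counts, so the counting error of single values is unknown.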
